A study of Caenorhabditis elegans with 40 samples.

Results

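Of the 9532 Caenorhabditis elegans genes in the RNA table, 43 belong to families named for enzymes and small proteins that digest bacteria and lysosomal cargo. They are the genes whose symbols begin with asp- (11 genes), cpr- (6), lys- (5), spp- (11), pho- (8) or lipl- (2), and they were chosen by symbol alone. RNA-seq and ribosome profiling (Ribo-seq) had been run on whole animals grown on OP50 bacteria. Each mutant strain had 1 functional copy of a ribosomal protein gene, with the null copy held against a balancer, which is a chromosome so rearranged that the allele is not lost by recombination. They were rpl-5(0)/+ and rpl-33(0)/+ over mIn1 (written mc6 in the sample labels), rps-10(0)/+ over tmC20 and rps-23(0)/+ over tmC5, all 4 days old and L4 larvae. The controls were wild type over the same balancers at day 3 (L4) and day 4 (pre-gravid adults, although the labels of replicate 2 of tmC20 and of tmC5 at day 4 say L4 for RNA). Every mutant and every control therefore carried a balancer, and each null allele was studied in a single strain.

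The RNA table has 20 columns, of which 17 are distinct libraries, with totals from 1017787 to 2384186 counts. The rpl-5(0)/+ columns hold the same counts as the rpl-33(0)/+ columns, gene for gene, so they were used once as a shared rpl pair, and which of the 2 mutants they came from cannot be told apart. A tmC20 library stands under both day 3 and day 4, and is called tmC20 both days here. It entered the pooled tmC20 controls but no comparison of ages. Where 2 columns of a group had the same heading (mIn1 day 4 and tmC5 day 4 among the controls), replicate numbers only name the columns. Day 4 controls stood apart from the rest on the first principal component (54.8% of the variance), with scores from 82.1 to 91.8 against -64.6 to -14.6. The mutants, 4 days old but L4, were among the rest, with the day 3 L4 controls. The control ages below thus differ in stage as well as in days. However, 2 tmC5 libraries lay with the other control age. The library labelled tmC5 day 3 replicate 1 scored 83.6, with the day 4 controls, and the one labelled tmC5 day 4 replicate 1 scored -41.6, with the day 3 controls. Both tmC5 day 4 columns have the same heading, and 1 tmC5 day 4 sample is titled L4. Whether the column at -41.6 is that sample cannot be told. Results that rest on these 2 libraries are given with and without them, a choice made after the data had been seen. For rps-23(0)/+ against each control age alone, 1 control library was then left at each age. Its counts without the 2 libraries are therefore a description only. The 7 intestine markers in the table, among them the gut transcription factor elt-2 and the gut esterase ges-1, had counts in every library. Their summed level ran from 994 to 1246 CPM (counts per 1000000 counts, after TMM normalization) in the 5 libraries that lay with day 4 and from 2070 to 4018 CPM in the other 12. Hypodermal and germline markers differed between these 2 sets of libraries as well. The 6 hypodermal genes stood at 267 CPM or less in the 5 libraries and at 3931 or more in the 12. The 9 germline genes stood at 5300 CPM or more in the 5 libraries and at 3200 or less in the 12. Pharynx, body wall muscle and neuron markers were lower too in those 5 libraries, with muscle at 7693 CPM or less against 10655 or more. The 6 yolk genes (symbols starting with vit-) went the other way, at 68243 CPM or more against 22497 or less. The part of tissue composition in the results below was not tested. In RNA from whole animals, fewer cells of a type and less RNA per cell cannot be told apart.

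As background, the worm intestine both digests bacteria and stores fat, and its cells are rich in lysosome-related organelles. The asp genes encode aspartyl proteases related to cathepsin D, and the cpr genes cysteine proteases related to cathepsin B. The lys genes encode lysozymes that cut bacterial cell walls, and the spp genes small saposin-like proteins, some of which form pores in bacterial membranes. The pho genes encode acid phosphatases, of which pho-1 is a known intestinal enzyme, and the lipl genes lipases related to lysosomal acid lipase. Many intestinal genes are controlled by the GATA factor ELT-2, which binds sites with the core TGATAA, and many lysosomal genes by HLH-30, the worm TFEB, which binds the E-box CACGTG. The files do not give the tissue in which each of the 43 genes is made.

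The stretches of genome just upstream of asp-6 and of some of the genes called in RNA are shown here. They were read from the WBcel235 genome of RefSeq with starts from Ensembl 115. Those of other called genes, among them asp-13, spp-1 and spp-17, are not printed. Capitals mark TGATAA on either strand (TTATCA when read on the other) and CACGTG. The asp-6 and asp-12 genes lie head to head with only 272 bases between them, so that both start from 1 stretch (chrV:8268938-8269209, plus strand, with asp-6 to its left). The others are the 250 bases before the start of pho-11 (chrII:9931599-9931848, plus strand) and spp-5 (chrX:7320355-7320604, minus strand), which were higher in mutants, of spp-8 (chrIV:8481414-8481663, plus strand), likewise higher, of lipl-5 (chrV:385496-385745, plus strand), which was lower in rps-10(0)/+, and of lys-4 (chrIV:11623175-11623424, minus strand), which was lower over all mutants.
asp-6 to asp-12: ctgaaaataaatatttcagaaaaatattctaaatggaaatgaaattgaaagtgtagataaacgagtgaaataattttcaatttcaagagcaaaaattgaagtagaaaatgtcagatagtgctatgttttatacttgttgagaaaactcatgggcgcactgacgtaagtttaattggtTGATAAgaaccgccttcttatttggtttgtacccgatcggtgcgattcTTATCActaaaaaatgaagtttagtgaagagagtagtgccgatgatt
pho-11: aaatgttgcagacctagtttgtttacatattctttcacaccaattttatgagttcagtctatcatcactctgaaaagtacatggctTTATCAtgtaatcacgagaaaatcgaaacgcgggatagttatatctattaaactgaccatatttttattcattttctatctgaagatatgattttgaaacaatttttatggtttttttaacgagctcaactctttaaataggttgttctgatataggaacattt
spp-5: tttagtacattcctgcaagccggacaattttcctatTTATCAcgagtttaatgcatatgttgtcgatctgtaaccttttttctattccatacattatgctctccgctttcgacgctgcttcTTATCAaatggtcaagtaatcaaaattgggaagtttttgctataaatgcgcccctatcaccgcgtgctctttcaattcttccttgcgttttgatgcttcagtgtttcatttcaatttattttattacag
spp-8: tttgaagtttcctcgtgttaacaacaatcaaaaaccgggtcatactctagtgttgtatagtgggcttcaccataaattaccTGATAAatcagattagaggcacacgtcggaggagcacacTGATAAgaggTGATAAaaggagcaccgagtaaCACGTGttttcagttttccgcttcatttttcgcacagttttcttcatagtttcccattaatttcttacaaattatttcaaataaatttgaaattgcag
lipl-5: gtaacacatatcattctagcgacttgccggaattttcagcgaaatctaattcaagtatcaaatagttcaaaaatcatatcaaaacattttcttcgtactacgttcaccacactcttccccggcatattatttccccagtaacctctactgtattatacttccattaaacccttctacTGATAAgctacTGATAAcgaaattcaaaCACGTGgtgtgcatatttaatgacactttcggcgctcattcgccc
lys-4: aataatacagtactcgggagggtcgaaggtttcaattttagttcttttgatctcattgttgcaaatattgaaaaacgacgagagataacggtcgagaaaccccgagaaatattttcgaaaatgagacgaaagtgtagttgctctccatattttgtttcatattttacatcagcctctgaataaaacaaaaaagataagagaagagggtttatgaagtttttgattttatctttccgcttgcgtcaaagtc

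The region between asp-6 and asp-12 holds 2 GATA sites and the pho-11 window 1. The spp-5 window holds 2, the spp-8 window 3 with 1 E-box, and the lipl-5 window 2 with 1 E-box. The lys-4 window holds neither TGATAA nor CACGTG. Only the exact letters TGATAA were counted as a GATA site, and other letters around GATA were not searched. Over all 43 genes, 31 (72.1%) have a GATA site in the 250 bases before the annotated start, against 5347 of the 19973 protein-coding genes (26.8%). The 19973 include genes not in the RNA table, and the 2 sites between asp-6 and asp-12 count for both genes. Such sites were found before 8 of 11 asp genes, 5 of 6 cpr genes, 4 of 5 lys genes, 7 of 11 spp genes, 6 of 8 pho genes and 1 of 2 lipl genes. An E-box was found before 4 (cpr-1, lipl-5, spp-4 and spp-8; 9.30%), against 987 of all genes (4.94%). The windows of asp-1 and asp-3, whose RNA was among the most abundant, hold neither motif. These are matches of letters and not sites shown to be bound. In worms the annotated start is often where a spliced leader is joined, as the letters cag at the end of the spp-5 and spp-8 windows show for a splice acceptor, so transcription may begin further upstream. Besides asp-6 and asp-12, asp-5 lies 328 bases from asp-12, pho-1 and pho-4 lie 410 bases apart, cpr-5 and cpr-8 are divergent with 565 bases between them, and spp-3, spp-2, spp-4 and spp-5 form a cluster on the X chromosome.

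Together the 43 genes made up 7620 to 21576 CPM of a library. The 5 most abundant took 64.2% of their summed mean level. Per kb of exon, so that genes of different length can be compared, the highest mean levels were those of asp-1 (3342 CPM per kb), spp-17 (1656), asp-6 (1087) and asp-3 (1058), and the lowest was that of pho-7 (5.10). asp-1 alone made 46.7% of the asp level, spp-17 46.8% of the spp level, pho-11 48.4% of the pho level and lipl-5 92.2% of the lipl level, while cpr-6 (36.9%) and lys-1 (35.6%) led families with a smaller leading share. The range over the 17 libraries was narrow for spp-10, whose highest level was 2.31 times its lowest, and wide for spp-2, where it was 54.3 times at 0.702 to 38.1 CPM. asp-12 was at 0 counts in 1 library and reached 153 CPM in another. All 43 passed the filter on low counts in the fits of each mutant and of the control ages.

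**Figure D1:**
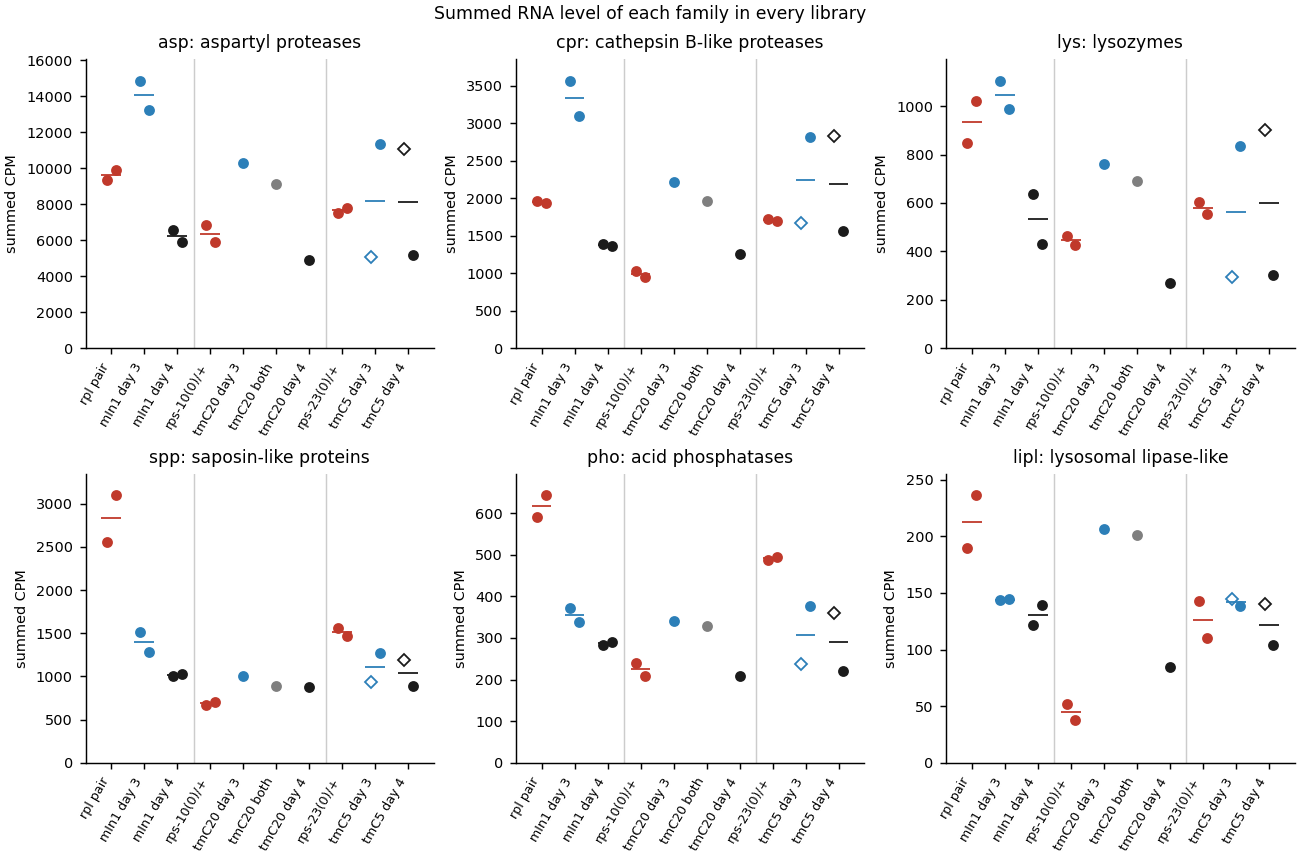
Summed RNA level of each family in CPM (vertical axes from 0) in every RNA library, by group along the horizontal axis; red points are mutants, blue points day 3 controls, black points day 4 controls, grey the tmC20 library that stands under both days, and open diamonds the 2 tmC5 libraries that lay with the other age. Short lines are group means. The asp sum was 13257 and 14868 CPM in mIn1 day 3 and 5909 and 6593 in mIn1 day 4, and the spp sum was highest in the shared rpl pair, at 2561 and 3100 CPM.

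Between the 2 control ages, most of these genes were lower at day 4. The asp sum was 14868 and 13257 CPM in the mIn1 day 3 libraries and 6593 and 5909 in the day 4 libraries. The tmC20 controls gave 10273 CPM at day 3 and 4923 at day 4, and the library under both days gave 9095. In tmC5, replicate 2 gave 11320 CPM at day 3 and 5198 at day 4, whereas the library labelled day 3 replicate 1 gave 5054 and the one labelled day 4 replicate 1 gave 11066. In mIn1 and tmC20 every day 4 library was thus below every day 3 library. In tmC5 the ages overlapped because of the 2 libraries that lay with the other age. The mean was lower at day 4 than at day 3 for 35 of the 43 genes in mIn1 (81.4%, against 52.0% of all 9532 genes), for 34 in tmC20 (79.1%, against 50.6%) and for 26 in tmC5 (60.5%, against 51.0%).

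With all 17 libraries in 1 fit, none of the 43 genes passed an adjusted p of 0.05 (edgeR quasi-likelihood test, Benjamini-Hochberg over all genes) between the ages. Few genes did anywhere, 0.0531% of the 9416 tested in mIn1, 0% in tmC20 and 0% in tmC5. At an unadjusted p under 0.05 there were 20 members in mIn1 (2711 of all genes), 8 in tmC20 (1142) and 0 in tmC5 (15), and DESeq2 called 8, 0 and 0. How many of all genes DESeq2 called is not set beside its counts here or below. The methods call the biological replicates independent, and the RNA table holds 2 distinct libraries for rps-10(0)/+ and 2 for rps-23(0)/+. For the 2 rpl mutants it holds only the 2 of the shared rpl pair. The median log2 change of the 43 was -0.59 in mIn1, -0.87 in tmC20 and -0.02 in tmC5, beside -0.05, -0.05 and -0.01 over all genes. The 2 tmC5 libraries enter the mIn1 and tmC20 comparisons only through the spread that all groups share. Without them the calls changed. In mIn1, 19 members were lower and 3 (spp-15, cpr-6 and pho-5) higher at day 4, where 22.1% of all genes were lower and 21.5% higher. In tmC20, with 1 library at each age whose spread is taken from the other groups, 18 were lower and 0 higher, against 12.8% and 9.2% of all genes. In tmC5, with 1 library left at each age, 19 were lower and 0 higher, against 18.7% and 18.3%, a description only, since those libraries were left out for their RNA profile. Whether the share of members lower at day 4 differs from that of other genes was not tested. Markers of intestine, hypodermis, germline, pharynx, muscle and neurons, and the yolk genes, moved between the same libraries.

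The cathepsin B-like protease gene cpr-4 had one of the larger age differences. It stood at 1325 and 1144 CPM in mIn1 day 3 and 118 and 172 in mIn1 day 4, at 484 in tmC20 day 3 and 172 in tmC20 day 4, and at 1072 and 303 in replicate 2 of tmC5 at day 3 and day 4. Day 3 was the higher in each of these. In mIn1 the fitted change was -3.07 (SE 0.61, adjusted p = 0.140 by edgeR) in log2, and without the 2 tmC5 libraries -3.04 (SE 0.24, adjusted p = 2.34e-08). The lysozyme gene lys-4 followed, with 407 and 337 CPM in mIn1 day 3, 112 and 75.1 in mIn1 day 4, 327 in tmC20 day 3 and 75.1 in tmC20 day 4. Its change was -1.98 in mIn1 (SE 0.63, adjusted p = 0.140) and -2.15 in tmC20 (SE 0.89, adjusted p = 0.388), and both passed without the 2 libraries, at adjusted p of 2.81e-06 and 0.000256. asp-12 went from 153 and 147 CPM to 12.1 and 17.6 in mIn1, but only from 43.2 to 28.8 in tmC20. The acid phosphatase pho-1 went from 85.9 and 84.6 to 20.2 and 19.4 CPM in mIn1 and from 69.6 to 28.8 in tmC20.

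The 3 aspartyl proteases asp-1, asp-3 and asp-6 were lower together at day 4. asp-1 stood at 6696 and 6070 CPM in mIn1 day 3 and at 2988 and 2817 in day 4, and at 4592 and 2190 in tmC20 day 3 and day 4. asp-3, a lysosomal protease needed for necrotic death of worm neurons, stood at 2693 and 2409 against 1144 and 1030 CPM, and in tmC20 at 1882 against 948. asp-6 stood at 2892 and 2481 against 1029 and 880 CPM, and in tmC20 at 1540 against 789. No day 4 library of mIn1 or tmC20 reached a day 3 library of its balancer for any of the 3. The log2 changes in mIn1 were -1.12 for asp-1 (SE 0.38), -1.22 for asp-3 (SE 0.43) and -1.48 for asp-6 (SE 0.46), with edgeR adjusted p of 0.140, 0.141 and 0.140, and 0.000427, 0.000236 and 4.39e-05 without the 2 tmC5 libraries. Against this trend, the saposin-like gene spp-17 stood at 433 CPM in tmC20 day 3 and 470 in day 4, and cpr-6 at 561 and 519 CPM in mIn1 day 3 and 869 and 748 in day 4.

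The controls of the same balancer, both ages together, were set against each mutant. In the shared rpl pair 5 members were higher, against 1.87% of the 9276 genes tested, and 1 was lower, against 0.679%. The 5 were 4 spp genes and pho-11, and the lower one was asp-13. The same counts, 5 and 1, were found without the 2 tmC5 libraries, but a separate fit of the shared rpl pair with its controls called 0, leaving out its replicate 1 or 2 left 3 or 2, and DESeq2 called 11. In rps-10(0)/+ no member was higher (0.0862% of all genes; 1 at an unadjusted p under 0.05) and 1, lipl-5, was lower (0.0431%), and DESeq2 called 4 in all. In rps-23(0)/+ 2 were higher, pho-11 and spp-5 (0.377%), and 0 were lower (0.248%; 5 at an unadjusted p under 0.05), and DESeq2 called 7 in all. Without the 2 tmC5 libraries no member passed in rps-23(0)/+ (0.13% of all genes, and 13 members at an unadjusted p under 0.05). How many of all genes lay under that unadjusted p is not set beside these member counts, so they do not show more change in the members. Over all mutants against all controls, pho-11 and spp-8 were higher (1.26% of the 8546 genes tested) and asp-13 and lys-4 lower (0.644%). Without the 2 libraries these were spp-8 (0.559%), and asp-13 and lys-4 (0.488%), of 41 members tested. Against day 3 controls alone, pho-11, spp-8 and asp-13 did not pass over all mutants (edgeR adjusted p = 0.340, 0.268 and 0.156). The fits over all mutants had 2 groups, mutants and controls, with no term for balancer. The median log2 change of the 43 was 0.46 for the shared rpl pair, -0.39 for rps-10(0)/+ and 0.01 for rps-23(0)/+, beside -0.02, -0.05 and -0.08 over all genes.

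**Figure D2:**
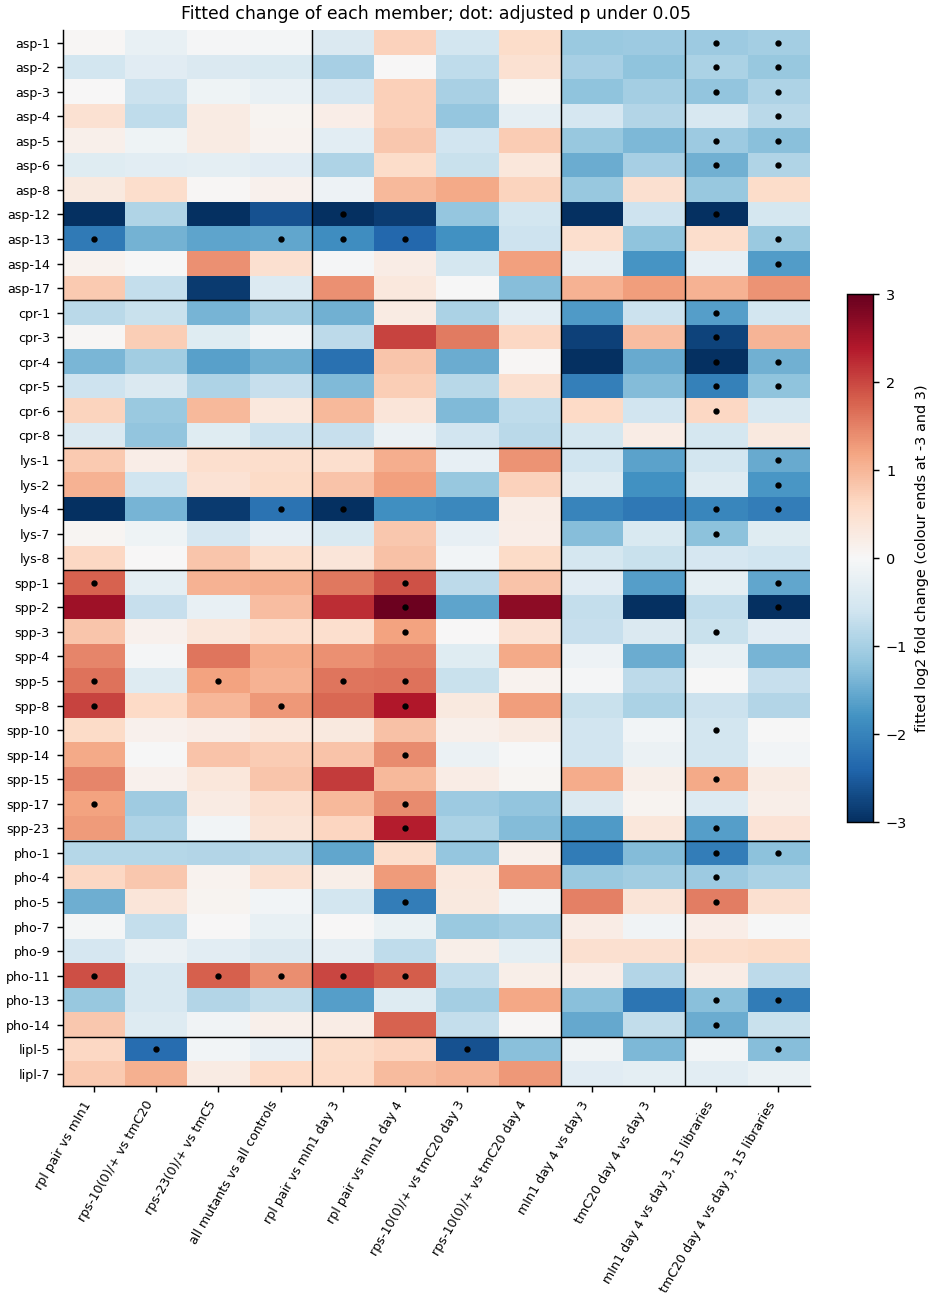
Fitted log2 fold change (colour, red higher and blue lower, ending at -3 and 3) of each of the 43 genes (rows, families divided by lines) in the mutant comparisons, in the shared rpl pair and rps-10(0)/+ against day 3 and day 4 controls alone, and between control ages with all libraries and with the 15 left without the 2 tmC5 libraries. Dots mark an edgeR adjusted p under 0.05; all 11 spp genes are fitted higher in the shared rpl pair, where 4 have a dot, and no gene has a dot between ages while all libraries are in the fit.

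The saposin-like genes were the family with the most calls. Their summed level was 2561 and 3100 CPM in the shared rpl pair and 1003 to 1519 in the 4 mIn1 controls. It was 1558 and 1469 CPM in rps-23(0)/+, above the 4 tmC5 controls (893 to 1273), and 669 and 709 in rps-10(0)/+, below the 3 tmC20 controls (878 to 1006). All 11 spp genes were fitted higher in the shared rpl pair (median 1.45 in log2), 9 in rps-23(0)/+ (median 0.34) and 4 in rps-10(0)/+ (median -0.03), but only those named below passed the test. Over all mutants the 11 were fitted higher as well, with a median of 0.82.

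spp-5 encodes a pore-forming protein that kills bacteria. Its level was 415 and 374 CPM in the shared rpl pair, and 152, 106, 128 and 121 in the mIn1 controls, which did not overlap it. The log2 change was 1.64 (SE 0.23, adjusted p = 0.00212). In rps-23(0)/+ it was 226 and 207 CPM, and in the tmC5 controls 80.2 and 106 in the libraries labelled day 3 and 111 and 75.5 in those labelled day 4, again with no overlap (1.22, SE 0.23, adjusted p = 0.0275; 0.204 without the 2 tmC5 libraries). In rps-10(0)/+ it was 92.1 and 96.7 CPM, within the tmC20 controls at 150, 132 and 89.2.

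spp-1, another pore-forming antibacterial protein, stood at 164 and 142 CPM in the shared rpl pair and at 38.8 to 51.4 in the mIn1 controls (1.76 in log2, SE 0.36, adjusted p = 0.0212). It stood at 79.6 and 86.2 CPM in rps-23(0)/+ and at 27.2 to 52.3 in the tmC5 controls, which lay apart but did not pass (1.05, SE 0.37, adjusted p = 0.282). spp-8 stood at 108 and 121 CPM in the shared rpl pair and at 19.4 to 36.09 in the mIn1 controls (2.04, SE 0.39, adjusted p = 0.0141). It was above the highest control of its balancer in each of the 6 mutant libraries, with 37.8 and 44.4 CPM in rps-10(0)/+ against 17.6 to 33.3, and 73.5 and 54.5 in rps-23(0)/+ against 18.8 to 46.8. Over all mutants its change was 1.31 (SE 0.27, adjusted p = 0.0180, and 0.0310 without the 2 tmC5 libraries). Against day 3 controls alone it was 1.09 (edgeR adjusted p = 0.268).

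The fitted values of spp-17 had opposite directions in 2 mutants, of which only the higher one passed. It stood at 1053 and 1669 CPM in the shared rpl pair, above the mIn1 controls at 443 to 729 (1.205, SE 0.23, adjusted p = 0.0124), and at 192 and 215 in rps-10(0)/+, below the tmC20 controls at 433, 370 and 470 (-1.06, SE 0.26, adjusted p = 0.364). In rps-23(0)/+ it was 667 and 647 CPM against 503 to 610 (0.25, SE 0.23, adjusted p = 0.761). The test of a difference between the mutants gave an adjusted p of 0.0783 for spp-17. spp-2 had the highest fitted value of its family in the shared rpl pair, 2.55 (SE 0.73, adjusted p = 0.0837), but on only 17 and 38 counts. spp-10, a prosaposin-like gene, had the lowest, with 170 and 178 CPM against 76.9 to 147 in the mIn1 controls.

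**Figure D3:**
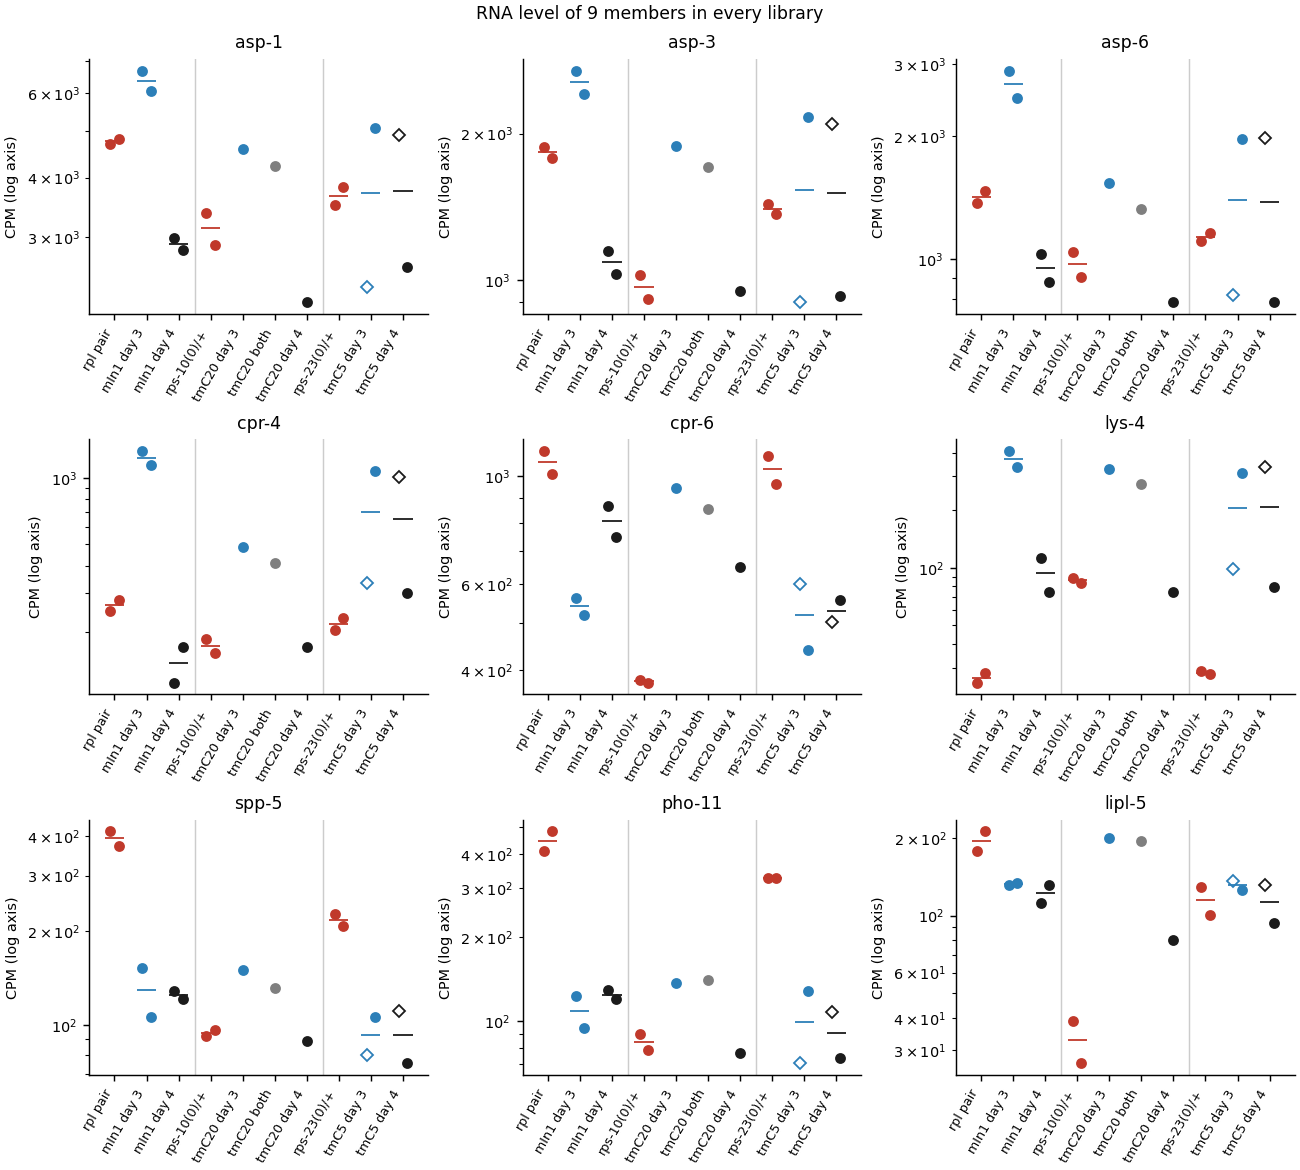
RNA level of 9 of the genes in CPM (log axes) in every RNA library, with groups, colours and symbols as in the plot of family sums. spp-5 and pho-11 are higher in the shared rpl pair and in rps-23(0)/+ than in any other library, lys-4 is lowest in those same 4 libraries, and lipl-5 is lowest in rps-10(0)/+, at 38.8 and 26.6 CPM.

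Of the acid phosphatases, pho-11 was higher in 2 mutants. Its level was 408 and 481 CPM in the shared rpl pair, and 123, 94.5, 129 and 120 in the mIn1 controls. It was 328 and 327 CPM in rps-23(0)/+, and 70.4 and 129 in the tmC5 libraries labelled day 3 and 108 and 73.5 in those labelled day 4. In rps-10(0)/+ it was 89.7 and 78.9 CPM against 137, 140 and 76.5. The first 2 mutants lay apart from all controls and the third lay among its own. The log2 changes were 1.93 (SE 0.28, adjusted p = 0.00221), 1.79 (SE 0.27, adjusted p = 0.00722; 0.0998 without the 2 tmC5 libraries) and -0.49 (SE 0.31, adjusted p = 1 by edgeR), and that over all mutants 1.38 (SE 0.31, adjusted p = 0.0241; 0.0734 without the 2 libraries). Against day 3 controls alone the pho-11 change over all mutants was 1.31 (edgeR adjusted p = 0.340). The test of a difference between the mutants gave an adjusted p of 0.0783 here too. The other 7 pho genes did not pass in the pooled comparisons. pho-5 had the lowest fitted value of the family in the shared rpl pair (-1.46, SE 0.63, adjusted p = 0.229), at 3.01 and 7.36 CPM, and pho-13 in rps-23(0)/+ (-0.88, SE 0.62, adjusted p = 0.700), at 6.82 and 6.12.

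Among the proteases no member was called higher in the pooled comparisons with all libraries in the fit. asp-13, an aspartyl protease gene, stood at 26.1 and 25.2 CPM in the shared rpl pair and at 93.7, 92.0, 140 and 119.1 in the mIn1 controls (-2.11, SE 0.37, adjusted p = 0.00907). It stood at 31.1 and 20.6 CPM in rps-23(0)/+ against 61.1 to 99.9 in the tmC5 controls, and at 67.8 and 54.8 in rps-10(0)/+ against 95.5 to 216 in the tmC20 controls. Every mutant library was below every control of its balancer. Over all mutants the change was -1.57 (SE 0.32, adjusted p = 0.0169, and 0.0177 without the 2 tmC5 libraries). Against day 3 controls alone asp-13 changed by -1.53 over all mutants (edgeR adjusted p = 0.156). Its fitted difference between control ages had opposite directions in mIn1 (0.49) and tmC20 (-1.204), of which neither passed, though the tmC20 value did without the 2 tmC5 libraries (-1.12, adjusted p = 0.0159).

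asp-12, the neighbour that shares its upstream region with asp-6, was at 4 and 0 counts (4.01 and 0 CPM) in the shared rpl pair, and at 153, 147, 12.1 and 17.6 CPM in the mIn1 controls. In rps-23(0)/+ it was at 3.79 and 1.67 CPM against 16.0 to 64.0 in the tmC5 controls, and in rps-10(0)/+ at 28.6 and 9.87 against 28.8 to 43.2. Its level was below every control of the balancer in all 6 mutant libraries, but the fitted change over all mutants, -2.62 (SE 0.74), had an adjusted p of 0.0800. asp-6, by contrast, was at 1377 and 1468 CPM in the shared rpl pair, between the mIn1 controls of day 4 (1029 and 880) and day 3 (2892 and 2481).

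asp-1 stood at 4708 and 4828 CPM in the shared rpl pair, also between its controls at day 4 (2988 and 2817) and day 3 (6696 and 6070). It stood at 3369 and 2895 CPM in rps-10(0)/+, between tmC20 day 4 (2190) and day 3 (4592), and at 3503 and 3823 in rps-23(0)/+, within the tmC5 controls at 2356 to 5086. asp-3 was at 1877 and 1784 CPM in the shared rpl pair, at 1024 and 913 in rps-10(0)/+ and at 1433 and 1364 in rps-23(0)/+. The controls of the same balancers ran from 1030 to 2693, from 948 to 1882 and from 899 to 2161 CPM. The log2 changes over all mutants were -0.07 for asp-1 (SE 0.24, adjusted p = 0.880), -0.22 for asp-3 (SE 0.27, adjusted p = 0.634) and -0.35 for asp-6 (SE 0.29, adjusted p = 0.479), and against day 4 controls alone all 3 turned positive (0.32, 0.19 and 0.11).

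Of the cathepsin B-like genes, cpr-4 stood at 250 and 281 CPM in the shared rpl pair, 186 and 160 in rps-10(0)/+ and 205 and 231 in rps-23(0)/+, levels near those of day 4 controls (118 to 303 CPM in the 4 libraries other than that labelled tmC5 day 4 replicate 1). Its pooled changes did not pass (-1.38, -1.04 and -1.63). cpr-6, the most abundant of the family, stood at 1124 and 1010 CPM in the shared rpl pair against 519 to 869, at 1097 and 964 in rps-23(0)/+ against 439 to 599, and at 381 and 376 in rps-10(0)/+ against 649 to 943. In each case the mutant libraries lay outside their controls. The changes were 0.66 (SE 0.24, adjusted p = 0.162), 0.98 (SE 0.24, adjusted p = 0.0883) and -1.11 (SE 0.27, adjusted p = 0.337), and the test of a difference between the mutants gave an adjusted p of 0.0783. None of these values for cpr-6 passed the test over all genes. The highest fitted values of single proteases that have not been named so far did not pass either, and were those of asp-14 in rps-23(0)/+ (1.36, SE 0.38, adjusted p = 0.163), with 164 and 148 CPM against 44.3 to 91.9, of asp-17 in the shared rpl pair (0.77, SE 0.53), with 16.0 and 17.9 CPM against 4.97 to 14.5, and of asp-8 (0.53, SE 0.97) and cpr-3 (0.75, SE 0.85) in rps-10(0)/+, both at under 13 CPM there.

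Of the lysozymes, lys-4 was lower over all mutants (-2.22, SE 0.49, adjusted p = 0.0236; 0.0397 without the 2 tmC5 libraries), and against day 4 controls alone lys-4 did not pass (-1.50, adjusted p = 0.0574). It stood at 25.1 and 28.4 CPM in the shared rpl pair and 28.8 and 27.8 in rps-23(0)/+, below each of the 11 controls (75.1 to 407 CPM), and at 88.7 and 83.4 in rps-10(0)/+, within them. In the shared rpl pair it was lower than the day 3 controls (-3.81, SE 0.69, adjusted p = 0.0364), and the value against day 4 controls was -1.83 (SE 0.66, adjusted p = 0.0760). The other 4 lysozymes did not pass in the pooled comparisons. Without the 2 tmC5 libraries the day 4 controls of rps-23(0)/+ are 1 library, so lysozymes called against it are not counted here. lys-1, the most abundant, stood at 377 and 502 CPM in the shared rpl pair against 167 to 320 in the mIn1 controls (0.78, SE 0.45, adjusted p = 0.342). lys-2 stood at 109 and 141 CPM there against 35.2 to 69.6 (1.04, SE 0.58, adjusted p = 0.325), and lys-8 at 247 and 230 CPM in rps-23(0)/+ against 67.2 to 204 (0.84, SE 0.42, adjusted p = 0.497). Both mutants lay above their controls for these genes without passing.

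The lipase gene lipl-5, known to be induced when worms are starved, was the member called in rps-10(0)/+ against its pooled controls. It stood at 38.8 and 26.6 CPM there, and at 201, 195 and 80.0 in the tmC20 controls of day 3, both days and day 4. The mutant libraries were below each of the other 15. The log2 change was -2.27 (SE 0.36, adjusted p = 0.0281; 0.0493 without the 2 tmC5 libraries). The call for lipl-5 was lost in a separate fit (adjusted p = 0.863), when the ages of the controls were kept as separate groups (0.0558), and without either rps-10(0)/+ library (0.268 without replicate 1 and 0.619 without replicate 2), tmC20 day 3 (0.108) or tmC20 both days (0.0862). lipl-5 stood at 178 and 212 CPM in the shared rpl pair and at 129 and 100 in rps-23(0)/+, where it did not pass, and its test of a difference between the mutants gave an adjusted p of 0.0783. That test called no member (0.0216% of all genes, 2 of 9276), with 11 members at an unadjusted p under 0.05. No share of all genes at that unadjusted p is given beside the 11.

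Set against each control age alone, the mutants differed in where they fell. The mean of the shared rpl pair lay between the means of its day 3 and day 4 controls for 14 of the 43 genes, above both for 22 and below both for 7. Over all 9532 genes these shares were 32.7%, 35.5% and 31.8%, so that members were more often above. In rps-10(0)/+ 23 members lay between, 8 above and 12 below (53.4%, 24.4% and 22.2% of all genes). In rps-23(0)/+ 4 lay between, 20 above and 19 below (12.9%, 38.5% and 48.6% of all genes), with means that include the 2 libraries that lay with the other age.

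Against day 3 controls alone, pho-11 and spp-5 were higher in the shared rpl pair (0.329% of the 9416 genes tested) and asp-12, asp-13 and lys-4 lower (0.319%). Against day 4 controls alone, 9 members were higher (7.15% of all genes), of which 8 were spp genes and 1 was pho-11, and 2 were lower (3.92%), asp-13 and pho-5. In rps-10(0)/+ lipl-5 was lower than at day 3 (-2.62, SE 0.33, adjusted p = 0.0177; 0.0425% of all genes), and no member passed against day 4 (0.0743%; 5 at an unadjusted p under 0.05). In rps-23(0)/+ no member passed against day 3 (0.287% of all genes, and 13 members at an unadjusted p under 0.05). There pho-11 passed against day 4 (1.87, SE 0.32, adjusted p = 0.0459, with 0.393% of all genes). The counts at an unadjusted p have no share of all genes beside them, so they do not show more change in the members. Without the 2 tmC5 libraries the counts rose with those of all genes. The shared rpl pair then had 9 members higher and 10 lower than at day 3 (5.67% and 3.5%), and 25 higher and 5 lower than at day 4 (25% and 22.9%). In rps-10(0)/+ there were 0 higher and 6 lower than at day 3 (0.202% and 0.447%), namely asp-4, asp-13, cpr-4, cpr-6, lys-4 and lipl-5, and 3 higher and 3 lower than at day 4 (15.1% and 11.2%). In rps-23(0)/+ there were 3 higher and 7 lower than at day 3 (2.51% and 2.88%), and 12 higher and 5 lower than at day 4 (18.5% and 20.1%). The rps-23(0)/+ counts without the 2 tmC5 libraries rest on 1 control library at each age. They are a description only, since the 2 were left out for their RNA profile. asp-13 was the only member lower than both ages in the shared rpl pair in the fit of all libraries, and pho-11 and spp-5 were the ones higher than both.

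Beside the shared rpl pair, the summed hypodermal markers stood at 9731 and 10559 CPM, above mIn1 day 3 at 4446 and 5876, and the intestine markers at 2398 and 3279.9 CPM, within the mIn1 controls at 1103 to 4018. In the shared rpl pair the 9 germline markers stood at 752 and 1135 CPM, below the mIn1 controls at 1190 to 5834, and the coelomocyte marker at 13.03 and 16.8 CPM, above 1.66 to 4.73. In rps-23(0)/+ the hypodermal markers stood at 8012 and 9608 CPM, above the tmC5 controls at 105 to 6304, and the intestine markers at 2070 and 2131, within 994 to 3152. The summed intestine markers in rps-10(0)/+ stood at 2899 and 3052 CPM, above the tmC20 controls at 1246 to 2609. Most of that sum was act-5 (1918 and 1840 CPM). Of the 7 intestine markers there, 2 were fitted higher and 5 lower, with a median of -0.07 in log2. The part of these markers in the changes was not tested.

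Of other digestive hydrolases outside the 6 families, 22 were in the table. In the shared rpl pair 5 of them were higher and 0 lower (1.87% and 0.679% of all genes; median 0.94 in log2), namely cpz-1, a cathepsin Z-like protease (1.67, SE 0.28, adjusted p = 0.00612), the acid ceramidase genes asah-1 and asah-2, the acid sphingomyelinase gene asm-2 and the mannosidase gene aman-1. In rps-23(0)/+ 2 were higher (0.377% of all genes), asah-1 (2.31, SE 0.37, adjusted p = 0.00960) and nuc-1, the DNase that digests DNA in the gut and in dying cells (1.45, SE 0.29, adjusted p = 0.0338), and in rps-10(0)/+ none passed (0.0862% of all genes higher and 0.0431% lower; median -0.05). Of 26 genes for lysosomal membrane proteins and the proton pump that acidifies lysosomes, none passed in these comparisons, with medians of 0.15, 0.06 and -0.07 in the shared rpl pair, rps-10(0)/+ and rps-23(0)/+. Between control ages no gene of either list passed with all libraries in the fit, where at most 0.0531% of all genes did.

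The 20 Ribo-seq libraries held 1081 to 9637 counts each, after reads sharing a molecular identifier had been collapsed, so that only 11 genes passed the filter on low counts. Of the 77 genes of the 6 families in the Ribo-seq table, 49 had a count in some library, among them 40 of the 43. asp-1 had 29 counts in the 8 mutant libraries together and 51 in the 12 controls, asp-3 49 and 68, and asp-6 10 and 24, out of 30234 and 35775 counts. The share of asp-1 was 1.03 ± 0.757 counts per 1000 (SD, n = 8) in mutants and 1.33 ± 0.887 (SD, n = 12) in controls, and the 2 ranges, 0 to 2.43 and 0 to 3.28, overlapped (p = 0.445, exact two-sided permutation test; 0.667 adjusted over the 3 genes). The share of asp-3 was 1.64 ± 0.863 and 1.89 ± 1.31 (p = 0.674, the same exact test; 0.674 adjusted), with ranges from 0.694 to 3.54 and from 0.344 to 4.93. That of asp-6 was 0.382 ± 0.406 and 0.646 ± 0.600 (p = 0.292, exact; 0.667 adjusted), with ranges from 0 to 1.04 and from 0 to 2.42. A difference between mutants and controls was therefore not detectable for these 3 genes at this depth, and the log2 ratios of the mean shares were -0.37, -0.20 and -0.76.

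**Figure D4:**
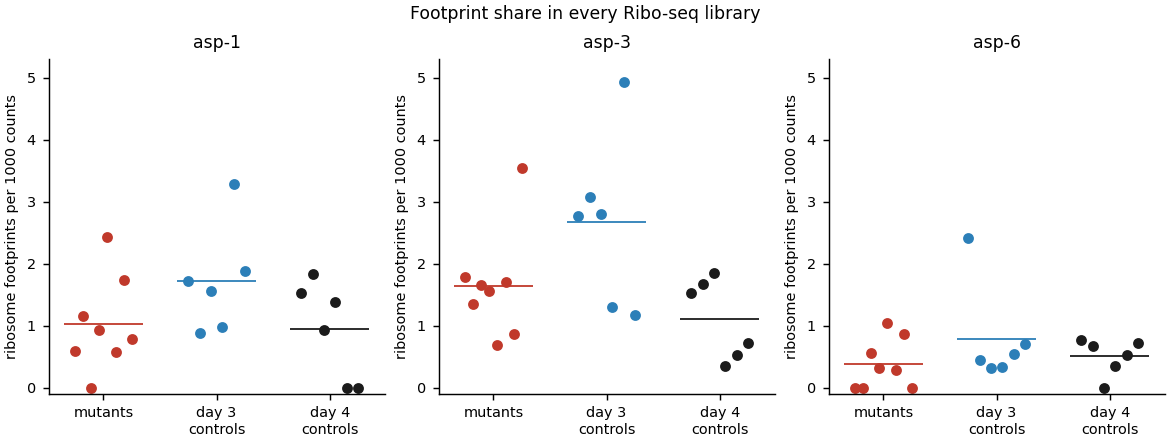
Ribosome footprints of asp-1, asp-3 and asp-6 per 1000 counts of the library (vertical axis from 0) in each Ribo-seq library, for the 8 mutant libraries (red), 6 day 3 controls (blue) and 6 day 4 controls (black); lines are group means. Mutants and controls overlap for all 3 genes, and the highest asp-3 share, 4.93, is that of a day 3 control.

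By control age, asp-1 had 31 counts at day 3 and 20 at day 4, asp-3 49 and 19, and asp-6 15 and 9, out of 19838 and 15937 counts. The Ribo-seq library labelled tmC5 day 3 replicate 1 had 6 counts of asp-1 and 9 of asp-3 and the highest share of both among the 20 libraries (3.28 and 4.93 per 1000), whereas the RNA library of that label lay with day 4 and held the second lowest asp-1 level of the 17, 2356 CPM. Summed over the family, asp footprints were 7.91 per 1000 counts at day 3, 4.14 at day 4 and 4.43 in mutants. The lys sum was 1.97 at day 3, 0.502 at day 4 and 1.69 in mutants, and the spp sum 1.81, 1.00 and 2.08.

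Of the genes called in RNA, chosen here after their values were seen, lys-4 had 0 counts in mutants and 16 in controls, all at day 3. With the mutants set at a floor of 3 counts over the group, its share was 4.51-fold lower than in controls. asp-12 and asp-13 each had 0 counts in mutants and 9 in controls, 2.54-fold lower on the same floor. All 9 of asp-12 were at day 3, and those of asp-13 were 7 at day 3 and 2 at day 4. pho-11 had 26 counts in mutants and 15 in controls, and spp-5 16 and 10. spp-17 had 10 counts in mutants and 6 in controls, spp-1 2 and 1, lipl-5 7 and 7, and spp-8 0 and 0. cpr-4 had 6 counts in mutants and 19 in controls, of which 19 were at day 3 and 0 at day 4. The floors cover counting error in the mutants only. They leave out the counting error of the controls and the spread over libraries, and so are not bounds. These genes were too sparse for a test across all genes.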

How the data were processed

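RNA-seq and Ribo-seq had been made from the same lysates of whole worms. The authors deposited raw counts of reads per gene for both. Per the methods, RNA libraries were made with a stranded SMARTer kit, reads were mapped with RiboFlow to the transcriptome of WBcel235, and Ribo-seq reads sharing a molecular identifier were collapsed. Of the Ribo-seq table, 6 columns with no matching sample were not used. The 43 genes and the lists beside them were chosen with earlier results of these data known.

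Counts were filtered with filterByExpr, scaled by TMM and fitted in edgeR 4.0.16 (R 4.3.3) with its quasi-likelihood test, over all genes with Benjamini-Hochberg adjustment at 0.05. RNA libraries held 1017787 to 2384186 counts and Ribo-seq libraries 1081 to 9637, which limits the precision of each value. All groups shared 1 estimate of the spread. Over all mutants the fit had 2 groups, mutants and controls, with no term for balancer or for the single mutants. Libraries of the same mutant thus counted as separate replicates, and the p of that fit does not measure the spread between mutants. The design named edgeR for Ribo-seq too, but 11 genes passed the filter, so asp-1, asp-3 and asp-6 were tested by exact permutation of their shares. The steps were tested on simulated data. The text names asp-1, asp-3 and asp-6, each member that passed in a comparison (up to 12), the most abundant of each family, and the largest rise and fall per family in each mutant. Others were chosen after their values were seen. Alternatives were DESeq2 1.42.0, other scalings and filters, a replicate block, separate fits, each control age alone and leaving out each library. Windows of 250 bases upstream were searched for 2 motifs. Nothing was mapped or counted anew.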

Additional observations from a re-analysis of the deposited data

Results flagged for a closer look

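In 6 of 150 groups of 4 or 6 libraries, 1 library stood far from the others of its group relative to their range, where chance gives about 1 in 20 groups. Among the mIn1 controls, day 4 replicate 2 had 35.2 CPM of lys-2 against 68.3 to 69.6 in the other 3, and day 4 replicate 1 had 112 CPM of lipl-5 against 131 to 133. Among the tmC5 controls, day 4 replicate 2 had a lipl sum of 103.8 CPM against 139 to 145. Among the 6 mutant libraries, rps-10(0)/+ replicate 1 had 28.6 CPM of asp-12 against 0 to 9.87, and the shared rpl pair replicate 2 had 39.9 CPM of cpr-3 against 10.7 to 20.05 and 24.2 CPM of lipl-7 against 10.6 to 13.6.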

How the results depend on the processing

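Counts of members called depended on the test and the libraries. With the DESeq2 Wald test they were 11 in the shared rpl pair, 4 in rps-10(0)/+, 7 in rps-23(0)/+, 9 over all mutants and 8 between the mIn1 ages, in place of 6, 1, 2, 4 and 0. The share of all genes called by that test is not given, so the larger counts do not show more change in the members. Separate fits of each mutant gave 0 in all 3. With day 4 controls alone the counts were 11, 0 and 1, with day 3 controls alone 0 in rps-23(0)/+, and with each control age its own group 0 in rps-10(0)/+ and 7 in rps-23(0)/+. Without the 2 tmC5 libraries they were 0 in rps-23(0)/+ and 22, 19 and 18 between the mIn1, tmC5 and tmC20 ages.

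The replicate block, fitted on the columns that carry a number, gave 0 in each mutant and over all mutants, as did those columns alone with no replicate block. Among the mutants, same-numbered libraries did not deviate together (correlations from -0.0093 to 0.051). Mutants were not checked against numbered controls. Between control ages no block was fitted, since some of their columns carry no number of their own.

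Leaving out 1 library at a time gave 2 to 8 members in the shared rpl pair, 0 to 1 in rps-10(0)/+, 0 to 5 in rps-23(0)/+, 0 to 7 over all mutants, 0 to 3 in the difference between mutants, 0 to 11 between the mIn1 ages, and 0 to 0 between the tmC5 and tmC20 ages. The shared rpl pair had 3 without its replicate 1 and 2 without its replicate 2. rps-10(0)/+ had 0 without either of its own libraries, tmC20 day 3 or tmC20 both days. rps-23(0)/+ had 0 without either of its own libraries, 5 without tmC20 day 4, and 1 without rps-10(0)/+ replicate 1 or 2, tmC5 day 3 replicate 1 or tmC5 day 4 replicate 2. All mutants gave 0 without the shared rpl pair replicate 1, 1 without its replicate 2, 7 without rps-10(0)/+ replicate 1 and 2 without either rps-23(0)/+ library. The difference between mutants gave 3 without tmC20 day 4, and the mIn1 ages 11, 11, 8 and 9 without tmC5 day 3 replicate 1 or 2 and day 4 replicate 1 or 2. In the shared rpl pair pho-11 and spp-5 passed in all 17 of these fits, but not in the separate fit (adjusted p = 0.0608 and 0.0833).

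The values of asp-1, asp-3 and asp-6, none of which passed in a mutant, changed sign in several settings, and the cause was not tested. In the shared rpl pair asp-1 was -0.23 with library totals, -0.62 with the replicate block, -0.49 without it on the same columns, -0.022 in a separate fit and -0.43 against day 3 controls, and -0.14 to 0.25 leaving out 1 library. asp-3 there was -0.018 with DESeq2 size factors and with the Wald test, -0.26 with library totals, -0.013 with no filter, -0.67 with the replicate block, -0.56 without it, -0.051 in a separate fit, -0.014 without the 2 tmC5 libraries, -0.49 against day 3 controls and -0.19 to 0.24 leaving out 1 library. asp-6 there was 0.55 against day 4 controls. In rps-10(0)/+ against day 4 controls the 3 were 0.54, 0.057 and 0.33. In rps-23(0)/+ asp-1 was 0.00193 with at least 10 counts in every library, and -0.24 to 0.16 leaving out 1 library, and asp-3 -0.36 to 0.098. Over all mutants against day 4 controls alone they were 0.32, 0.19 and 0.11, and asp-1 was -0.17 to 0.0024 leaving out 1 library. Between the tmC5 ages asp-1 was -0.85 without the 2 libraries and -0.52 to 0.67 leaving out 1, asp-3 -0.72 to 0.75 and asp-6 -0.83 to 0.76. In Ribo-seq asp-3 was 0.046 with edgeR and no filter, 0.11 with DESeq2 size factors added and 0.12 with the Wald test, and -0.46 to 0.028 leaving out 1 library, with -0.69 to -0.17 for asp-1 and -1.17 to -0.34 for asp-6. Ribo-seq values with library totals or DESeq2 size factors under the main filter could not be given, since the 3 genes do not pass it. At 1081 to 9637 counts a library, Ribo-seq limits these genes to a few counts.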
